A study of Rattus norvegicus with 11 samples.

Results

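The 26 nuclear genes for mitochondrial proteins described here encode subunits of the respiratory complexes and of ATP synthase, proteins of the mitochondrial ribosome, and factors that assemble, express or degrade such proteins. They were chosen from the genes that the study listed as differing in KM vs W or in KM vs “0” rats, by a symbol that starts with a prefix of these protein families (20 genes) or by a gene name that holds the word mitochondrial (6 genes), with carrier proteins, Acsm5 and Ucp3 left out. They are 26 of the 32883 genes in the counts and of the 1763 genes that the lists name. The lists hold mostly genes called different, so a nuclear gene for a mitochondrial protein that did not differ was not named and could not enter. Of the 26 genes, 22 were listed for KM vs W alone, 3 (Cox4i2, Mrps9 and Mterf1) for KM vs “0” alone, and 1 (Gfm1) for both.

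Polyadenylated RNA of the corpora quadrigemina, the inferior and superior colliculi of the dorsal midbrain, was sequenced in 11 male rats aged 4 months, with 1 library per rat. The 3 KM rats came from an inbred strain bred from Wistar rats for audiogenic epilepsy, seizures set off by a loud sound. The 4 “0” rats came from a strain still under selection for a lack of such seizures among descendants of crosses of KM with Wistar rats. That strain is not homogeneous in this trait, but by the study only “0” rats that did not respond to sound were used. The 4 W rats were outbred Wistar rats that did not respond with seizures. The labels give all 11 rats as of Wistar strain. By the methods of the study all were exposed to sound 4 days before the tissue was taken, and “0” rats had been tested more often than KM rats before. Tonic convulsions of the highest intensity in response to sound were recorded for the KM rats, whereas the W and “0” rats used were not prone to seizures. Strain, seizures and history of sound exposure therefore cannot be told apart.

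Mitochondria make most of the ATP of a neuron by oxidative phosphorylation. Complexes I to IV pass electrons to oxygen and, apart from complex II, pump protons, and ATP synthase uses the proton gradient. A few subunits are encoded by mitochondrial DNA and made on the mitochondrial ribosome, whereas the other subunits and all proteins of that ribosome are encoded in the nucleus and imported. The transcription factors NRF1, GABPA (an ETS factor) and YY1 are known to bind promoters of many such genes.

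Promoters from the RefSeq table (build GRCr8) were matched to 22 of the 26 genes by symbol, each window running from 250 bases before to 50 bases after the start of the gene. The stretches below end at the base before the start of the gene, and they are shown because they hold letters of these motifs in 4 genes of subunits or of the ribosome (Atp5pf, Atp5mc2, Ndufa11 and Mrpl22), in an assembly factor (Ndufaf4) and in a transcription termination factor of mitochondrial DNA (Mterf1). Capitals mark every match on either strand to GCATGCG (NRF1), CCGGAAG (ETS) or AAGATGG (YY1). The lengths are 200 bases, except for Atp5pf, which stops after 163 bases at the start of its head-to-head neighbour Gabpa, the gene of GABPA itself. In order, they lie at chr11:37375102-37375264 (minus strand), chr7:135678219-135678418 (minus), chr9:1637414-1637613 (plus), chr10:42845710-42845909 (plus), chr5:43401595-43401794 (plus) and chr4:31180932-31181131 (plus).
Atp5pf: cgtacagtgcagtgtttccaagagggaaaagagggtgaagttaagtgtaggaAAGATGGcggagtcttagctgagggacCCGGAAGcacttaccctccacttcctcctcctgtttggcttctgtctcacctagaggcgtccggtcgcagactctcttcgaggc
Atp5mc2: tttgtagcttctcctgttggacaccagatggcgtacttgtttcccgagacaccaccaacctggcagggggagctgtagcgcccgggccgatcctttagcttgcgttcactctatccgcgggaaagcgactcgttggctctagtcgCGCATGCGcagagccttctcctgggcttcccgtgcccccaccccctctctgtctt
Ndufa11: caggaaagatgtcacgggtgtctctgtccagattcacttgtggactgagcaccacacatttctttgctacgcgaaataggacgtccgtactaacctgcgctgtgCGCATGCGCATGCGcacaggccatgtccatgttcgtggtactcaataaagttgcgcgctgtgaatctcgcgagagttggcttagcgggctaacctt
Mrpl22: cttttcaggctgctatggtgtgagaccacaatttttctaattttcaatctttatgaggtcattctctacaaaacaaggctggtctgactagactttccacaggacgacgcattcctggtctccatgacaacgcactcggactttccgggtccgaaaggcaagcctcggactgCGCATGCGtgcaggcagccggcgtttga
Ndufaf4: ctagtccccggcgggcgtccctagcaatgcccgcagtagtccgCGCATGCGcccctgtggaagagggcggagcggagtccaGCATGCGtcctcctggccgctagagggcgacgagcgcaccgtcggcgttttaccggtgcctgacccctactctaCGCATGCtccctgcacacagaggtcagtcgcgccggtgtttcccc
Mterf1: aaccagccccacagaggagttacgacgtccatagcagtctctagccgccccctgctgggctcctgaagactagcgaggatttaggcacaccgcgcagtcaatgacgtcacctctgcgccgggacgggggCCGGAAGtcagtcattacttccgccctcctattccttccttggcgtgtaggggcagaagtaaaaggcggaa

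The NRF1 letters were found in 6 of the 22 promoters (27.3%; Atp5mc2, Atp5pf, Mrpl22, Ndufa11, Ndufa4 and Ndufaf4), against 3.99% of the 21851 promoters of protein-coding genes in the table. The ETS letters were in 4 (18.2%; Atp5pf, Hars2, Mrpl20 and Mterf1), against 10.7%, and the YY1 letters were in 5 (22.7%; Atp5pf, Mrpl42, Mrpl50, Mrps7 and Ndufb8), against 7.29%. The NRF1 letters overlap their own reverse complement, so a single palindromic stretch matches on both strands, and promoters rather than matches were therefore counted. At least 1 motif was present in 13 of 22 (59.1%), against 20% of all promoters. The gene Atp5pf held all 3, its NRF1 letters lying beyond the start of Gabpa and thus outside the stretch shown. A neighbour starting within 1000 bases on the opposite strand and running the other way was found for 5 of 22 genes (22.7%; Atp5pf, Hars2, Mrps11, Mrps7 and Ndufa11), against 6.86% of all promoters. The neighbour of Hars2 was Hars1, the cytosolic counterpart of the same enzyme, with 144 bases between the starts, and that of Mrps11 was Mrpl46, another gene of the mitochondrial ribosome. Motifs and neighbours are descriptions of sequence, and no binding was measured.

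The libraries held 10545964 to 15140180 reads assigned to genes. Levels are given as CPM, reads of a gene scaled to the same total of assigned reads in every rat after scaling with TMM factors, which correct for a few genes that take many reads. The floor below and the levels of cell type markers were scaled to assigned reads alone, without TMM factors. All 26 genes were above the limit used for testing, a mean of at least 1 CPM, with 18 to 4577 counts per rat, against a floor of 3 counts (0.198 to 0.284 CPM). Levels were not compared between genes, because transcript lengths were not used. Of 6 fixed markers of the dorsal midbrain the lists named only Pou4f1, at 0.0852 to 2.84 CPM, and none of the 6 neuron markers, so the label of the tissue could hardly be checked. In all, 3 libraries stood apart. The 10 genes with most counts took 29.21% of the reads in “0” 3, 7.952% in “0” 4 and 7.944% in KM 3, against 13.92 to 18.99% in the other 8 rats. The library of KM 3 also held the choroid plexus markers (5 of 5 named; summed level 7710 CPM), which summed to 11.8 to 63.8 CPM in the “0” and W rats. Counts of called genes are given with and without these libraries, as are single values that their removal moved most. Removal also leaves fewer rats per strain, so a call lost in this way does not show that it rested on these libraries.

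Strains were compared gene by gene with edgeR's QLF test, a quasi-likelihood F-test on the counts. A gene was called at an unadjusted p under 0.05, and p-values adjusted over all genes tested (Benjamini-Hochberg) stand beside it. In KM vs W 10.9% of 13721 genes were called, 5.33% lower and 5.58% higher in KM. In KM vs “0” 3.65% of 13686 genes were called, and in “0” vs W 6.69% of 13630. After adjustment, 0.0656% of genes were below 0.05 when KM was compared with W, 0.0146% when it was compared with “0” and 0.110% in “0” vs W, and none of the 26 genes was among them in any comparison. With the DESeq2 Wald test, 2 of the 26, Gfm1 and Mrpl50, passed adjustment in KM vs W and none in the other comparisons. The levels of the 2 strains compared did not overlap for 11.6%, 4.55% and 4.33% of genes in the same order. Because the 26 genes were chosen from lists of KM vs W and KM vs “0”, their counts in these comparisons follow from the choice and are given as descriptions, while “0” vs W shares its W rats with the first and its “0” rats with the second. In whole tissue, fewer cells of a type and less RNA per cell cannot be told apart.

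In KM rats the genes of structural subunits were lower than in W rats, and most of the genes of factors were higher. Among the 19 genes of subunits and ribosomal proteins, 17 were called lower in KM vs W and none higher, and the median log2-fold change was −0.40. Among the 7 genes of factors, 4 were called higher (Atpaf1, Ndufaf4, Gfm1 and Clpx) and 1 lower (Clpp), with a median of 0.34. Over all 26 genes, 22 were called (10.9% of all genes) and 23 did not overlap between the strains (11.6% of all genes). The median was −0.37, against 0.01 for all genes. The adjusted p (edgeR) ranged from 0.191 to 0.983. Without KM 3, 12 of the 26 genes were called, 11 lower and 1 higher, and without KM 1, W 1 or W 3 there were 13, 10 and 13. The median log2-fold change of the 26 genes was −0.30 without KM 3 and −0.43 to −0.33 without any 1 of the other rats.

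Single markers of other cell types also differed between KM and W rats, and not all in the same direction. The astrocyte markers that the lists named (3 of 5) summed to 1744 to 2428 CPM in KM, 1550 to 2869 CPM in “0” and 1324 to 1494 CPM in W rats. Red blood cell markers (3 of 5 named) summed to 1550 to 2730 CPM in KM, 1049 to 1846 CPM in “0” and 2447 to 6040 CPM in W rats. Without TMM factors, the astrocyte sum was thus higher in every KM and “0” rat than in every W rat. This depends on the scaling: TMM factors (1.119 in KM 3, 0.9989 in “0” 2, 0.9185 in W 4) would put KM 3 and “0” 2 below W 4. Gfap was the main part of the sum, and the other named astrocyte markers were not higher in KM. Aldh1l1 had 53.9 to 66.8 CPM in KM and 68.5 to 85.2 CPM in W rats, and Gja1 had 164 to 219 and 183 to 268 CPM. The red blood cell sum overlapped between KM and W. These markers were named because they are in the lists of differing genes, and their part in the levels of the 26 genes was not tested.

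**Figure D1:**
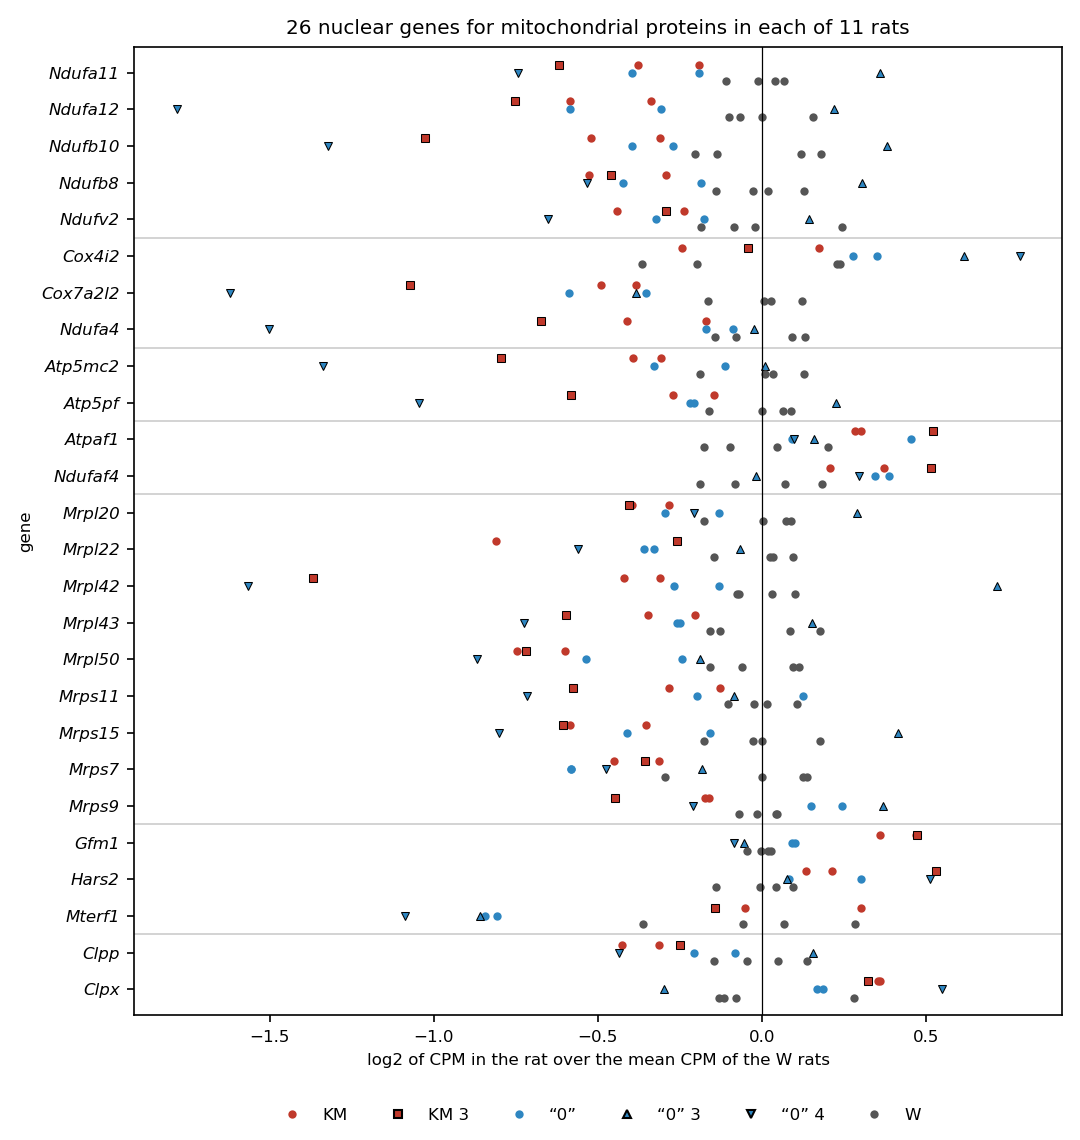
Level of each of the 26 genes in each of the 11 rats, as the log2 of the CPM over the mean CPM of the 4 W rats, with the families separated by grey lines. In most rows of subunits the KM rats lie left of the W rats, and “0” 3 (triangle up) and “0” 4 (triangle down) lie at opposite ends of the “0” rats.

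The 5 genes of complex I, the NADH dehydrogenase that starts the chain, were all lower in KM than in W without overlap, with a median log2-fold change of −0.42. Ndufa12, an accessory subunit, was at 11.8, 14.0 and 10.5 CPM in KM rats, at 14.3, 11.8, 20.6 and 5.14 CPM in “0” rats, and at 17.7, 16.5, 19.7 and 16.9 CPM in W rats. KM differed from W by −0.55 ± 0.16 (SE) on the log2 scale, a level 0.683 times that of W. The “0” rats spanned both other strains, from below the lowest KM rat to above the highest W rat. Ndufb10, an accessory subunit of the membrane arm, was at 122, 141 and 85.9 CPM in KM rats, at 145, 133, 228 and 70.0 CPM in “0” rats, and at 159, 152, 198 and 190 CPM in W rats. KM differed from W by −0.59 ± 0.19 (SE) on the log2 scale. KM 3 was the lowest KM rat, and “0” 4 was lower still.

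Ndufb8, also of the membrane arm, was at 231, 272 and 242 CPM in KM rats, at 293, 248, 411 and 230 CPM in “0” rats, and at 364, 302, 337 and 327 CPM in W rats. Here the 3 KM rats lay close together and KM 3 was not the lowest, and KM differed from W by −0.42 ± 0.12 (SE) on the log2 scale. Ndufa11, an accessory membrane subunit, had 69.0 to 92.8 CPM in KM, 63.3 to 136 CPM in “0” and 98.3 to 111 CPM in W rats (log2-fold change −0.38 ± 0.13, SE). Ndufv2, a core subunit that holds an iron-sulfur cluster, had 140 to 161 CPM in KM, 121 to 210 CPM in “0” and 167 to 225 CPM in W rats (−0.32 ± 0.13, SE). None of the 5 genes was called in KM vs “0” or in “0” vs W, where their log2-fold changes ran from −0.30 to −0.09 and from −0.47 to −0.18.

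The 3 genes next in the chain belong or are related to complex IV, cytochrome c oxidase, and they followed unlike patterns. Ndufa4, first assigned to complex I and now counted with complex IV, was at 127, 150 and 106 CPM in KM rats, at 159, 150, 166 and 59.6 CPM in “0” rats, and at 185, 153, 160 and 180 CPM in W rats. KM differed from W by −0.40 ± 0.15 (SE) on the log2 scale, and “0” 4 lay far below the other “0” rats. Cox7a2l2, named as similar to a subunit VIIa of the oxidase, was at 25.0, 23.2 and 15.5 CPM in KM rats, at 25.5, 21.7, 25.0 and 10.6 CPM in “0” rats, and at 35.5, 29.1, 32.7 and 33.2 CPM in W rats. All KM and all “0” rats were below all W rats, with log2-fold changes of −0.62 ± 0.18 (SE) in KM vs W and −0.67 ± 0.25 (SE) in “0” vs W (adjusted p = 0.633, edgeR), the latter −0.43 without “0” 4.

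Cox4i2, the isoform of subunit 4 known to be induced by low oxygen, differed from the rest in being higher in “0” rats than in both other strains. It was at 6.17, 8.25 and 7.09 CPM in KM rats, at 8.85, 9.31, 11.2 and 12.6 CPM in “0” rats, and at 6.37, 5.67, 8.62 and 8.56 CPM in W rats. The “0” rats overlapped with neither strain, and KM and W rats overlapped. The log2-fold change was −0.55 ± 0.22 (SE) in KM vs “0” (adjusted p = 0.987, edgeR), 0.52 ± 0.20 (SE) in “0” vs W (adjusted p = 0.66, edgeR) and −0.03 ± 0.22 (SE) in KM vs W. In this gene “0” 4 was the highest of the “0” rats, the only one of the 19 genes of subunits where it was. The call in KM vs “0” was lost without KM 1, KM 3, “0” 3 or “0” 4, and that in “0” vs W without “0” 3, “0” 4, W 1 or W 2. Without KM 3, “0” 3 and “0” 4, the log2-fold change was −0.33 in KM vs “0” and 0.32 in “0” vs W, and neither was called with these fewer rats. Cox4i2 is also known from pericytes of the brain, and the summed level of the endothelium and pericyte markers that the lists named (3 of 6) was 162 to 186 CPM in KM, 134 to 186 CPM in “0” and 114 to 131 CPM in W rats. The part of these cells in the level of Cox4i2 was not tested.

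Both genes of ATP synthase were called lower in KM vs W. Atp5mc2, a gene of subunit c that forms the rotating ring, was at 131, 139 and 99.1 CPM in KM rats, at 159, 137, 173 and 68.1 CPM in “0” rats, and at 173, 151, 176 and 188 CPM in W rats (log2-fold change in KM vs W −0.48 ± 0.15, SE). Atp5pf, the peripheral stalk subunit F6, was at 93.6, 102 and 75.5 CPM in KM rats, at 97.8, 97.1, 132 and 54.8 CPM in “0” rats, and at 120, 101, 118 and 113 CPM in W rats (−0.33 ± 0.14, SE). It was the only gene called lower whose KM and W levels overlapped, through KM 2 and W 2, and without KM 3 its change was −0.21 and no longer called. RefSeq names 4 pseudogenes and 2 like genes of Atp5mc2 and 4 pseudogenes of Atp5pf, so reads shared with such copies make these levels uncertain.

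All 9 genes of the mitochondrial ribosome were lower in KM than in W without overlap, and 8 of them were called lower, with a median log2-fold change of −0.38. Mrpl50, of the large subunit, was at 16.1, 17.8 and 16.4 CPM in KM rats, at 22.8, 18.6, 23.7 and 14.8 CPM in “0” rats, and at 29.2, 25.9, 28.8 and 24.2 CPM in W rats. It had the largest change of the 26 genes in KM vs W, −0.69 ± 0.13 (SE), a level 0.619 times that of W. The “0” rats lay below the W rats too (−0.45 ± 0.17, SE; adjusted p = 0.64, edgeR). Mrps15, of the small subunit, was at 32.4, 38.0 and 31.9 CPM in KM rats, at 36.5, 43.5, 64.8 and 27.9 CPM in “0” rats, and at 47.7, 48.6, 54.9 and 43.0 CPM in W rats. KM differed from W by −0.51 ± 0.13 (SE) on the log2 scale.

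Mrpl42 was at 21.6, 23.3 and 11.2 CPM in KM rats, at 24.0, 26.4, 47.5 and 9.76 CPM in “0” rats, and at 29.5, 27.4, 31.0 and 27.5 CPM in W rats. KM differed from W by −0.63 ± 0.24 (SE) on the log2 scale, or by −0.36 without KM 3, the lowest KM rat, and its level in “0” 3 was 4.87 times that in “0” 4, the widest such gap of the 26 genes. RefSeq names 2 pseudogenes and 1 like gene of it. Mrps7 was at 28.7, 31.5 and 30.6 CPM in KM rats, at 26.2, 26.2, 34.5 and 28.2 CPM in “0” rats, and at 42.7, 39.2, 43.1 and 31.9 CPM in W rats. It was lower in both KM and “0” than in W, by −0.37 ± 0.14 (SE) and −0.46 ± 0.15 (SE; adjusted p = 0.5, edgeR) on the log2 scale. Mrpl22 was also called lower in “0” vs W (−0.33 ± 0.15, SE; adjusted p = 0.733, edgeR). Its change in KM vs W was −0.42 ± 0.17 (SE), or −0.27 without KM 1, with 10.1 to 14.8 CPM in KM, 12 to 16.9 CPM in “0” and 16.0 to 18.9 CPM in W rats. When 1 rat was left out, the call in “0” vs W held in all 8 fits for Mrps7, in 7 for Cox7a2l2 (lost without W 1), in 4 for Mrpl50 (lost without “0” 2, “0” 4, W 1 or W 3) and in 2 for Mrpl22.

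Mrps9 was the gene of the ribosome listed for KM vs “0”. It was at 27.7, 27.5 and 22.7 CPM in KM rats, at 36.7, 34.4, 40.0 and 26.8 CPM in “0” rats, and at 29.5, 30.7, 32.0 and 31.9 CPM in W rats. The first 3 “0” rats were above all KM and W rats and “0” 4 was among the KM rats, and the log2-fold change was −0.41 ± 0.18 (SE) in KM vs “0” and −0.26 ± 0.12 (SE) in KM vs W, where it was not called. Its call in KM vs “0” held in 1 of 7 fits that left out 1 rat, the one without “0” 4. Mrpl20, Mrpl43 and Mrps11 were lower in KM vs W by −0.36 ± 0.11, −0.38 ± 0.15 and −0.32 ± 0.14 (SE) on the log2 scale. Without KM 3, the changes of Mrpl43 and Mrps11 were −0.27 and −0.20, and neither was called. Mrps11 lay just inside the threshold for a call in KM vs W, at an unadjusted p of 0.0483, and Hars2 lay just outside it, at 0.0514 (adjusted p = 0.456 and 0.461, edgeR). Hars2 is nevertheless in the list of the study.

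Of the 7 genes of factors, 6 had higher fitted levels in KM than in W. Gfm1, the elongation factor G that moves the mitochondrial ribosome along its message, was at 43.9, 40.7 and 44.0 CPM in KM rats, at 33.8, 34.0, 30.5 and 29.9 CPM in “0” rats, and at 32.3, 30.7, 32.1 and 31.6 CPM in W rats. All KM rats were above all other rats, and “0” and W rats overlapped. The log2-fold change was 0.44 ± 0.10 (SE) in KM vs W, 0.42 ± 0.13 (SE) in KM vs “0” and 0.01 ± 0.11 (SE) in “0” vs W (adjusted p = 0.998, edgeR). It was called in both comparisons with KM when any 1 rat was left out. Without KM 3, “0” 3 and “0” 4, its log2-fold change in KM vs “0” was 0.32 and no longer called. Mterf1 was then the 1 gene of the 26 called, in a fit with fewer rats of both strains.

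Mterf1, the termination factor that binds within the mitochondrial gene of leucine tRNA, was lower in “0” rats than in both other strains. It was at 3.46, 4.42 and 3.25 CPM in KM rats, at 2.05, 2.0, 1.98 and 1.69 CPM in “0” rats, and at 2.79, 4.37, 3.45 and 3.76 CPM in W rats. No “0” rat reached the lowest KM or W rat. The log2-fold change was 0.94 ± 0.26 (SE) in KM vs “0”, −0.90 ± 0.23 (SE) in “0” vs W (adjusted p = 0.318, edgeR) and 0.04 ± 0.24 (SE) in KM vs W. In contrast to the subunits, “0” 3 and “0” 4 lay close together, and the gene was called in both comparisons with “0” when any 1 rat was left out. RefSeq names 4 pseudogenes of Mterf1, and with 18 counts in its lowest rat it rested on few reads.

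The 2 assembly factors were higher in KM than in W without overlap. Atpaf1, needed to build the catalytic part of ATP synthase, was at 56.0, 55.2 and 65.1 CPM in KM rats, at 48.4, 62.2, 50.7 and 48.6 CPM in “0” rats, and at 40.2, 46.9, 52.2 and 42.4 CPM in W rats (log2-fold change in KM vs W 0.37 ± 0.13, SE). Ndufaf4, needed to build complex I, was at 18.8, 21.1 and 23.3 CPM in KM rats, at 20.7, 21.3, 16.1 and 20 CPM in “0” rats, and at 15.4, 17.1, 14.3 and 18.5 CPM in W rats (0.37 ± 0.14, SE). The direction of both was opposite to that of the genes of complex I and ATP synthase subunits described above, and KM 3 was the highest KM rat in both. Without KM 3 their log2-fold changes in KM vs W were 0.30 and 0.29, and neither was called. When 1 rat was left out, Atpaf1 was called in 5 of 7 fits and Ndufaf4 in 3. RefSeq names 5 pseudogenes of Ndufaf4.

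The genes of the ClpXP protease, which degrades proteins of the matrix, differed in opposite directions. Clpp, the proteolytic subunit, was at 30.0, 32.4 and 33.9 CPM in KM rats, at 38.1, 34.9, 44.9 and 29.8 CPM in “0” rats, and at 44.3, 36.4, 41.7 and 39.0 CPM in W rats (log2-fold change in KM vs W −0.33 ± 0.12, SE). Clpx, the chaperone subunit that unfolds the substrates, was at 28.1, 28.2 and 27.5 CPM in KM rats, at 24.7, 25.0, 17.9 and 32.2 CPM in “0” rats, and at 20.8, 26.7, 20.1 and 20.3 CPM in W rats (0.34 ± 0.14, SE). In “0” rats, too, Clpp was highest and Clpx lowest in “0” 3, and the reverse held in “0” 4. When 1 rat was left out of KM vs W, both genes kept their direction. Clpp was called in 5 of 7 such fits and Clpx in 1, the one without W 2. Hars2, which charges the mitochondrial histidine tRNA, was at 27.5, 26 and 34.2 CPM in KM, at 29.2, 25.1, 25.0 and 33.8 CPM in “0” and at 23.6, 25.3, 21.5 and 24.4 CPM in W rats (0.30 ± 0.13, SE).

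**Figure D2:**
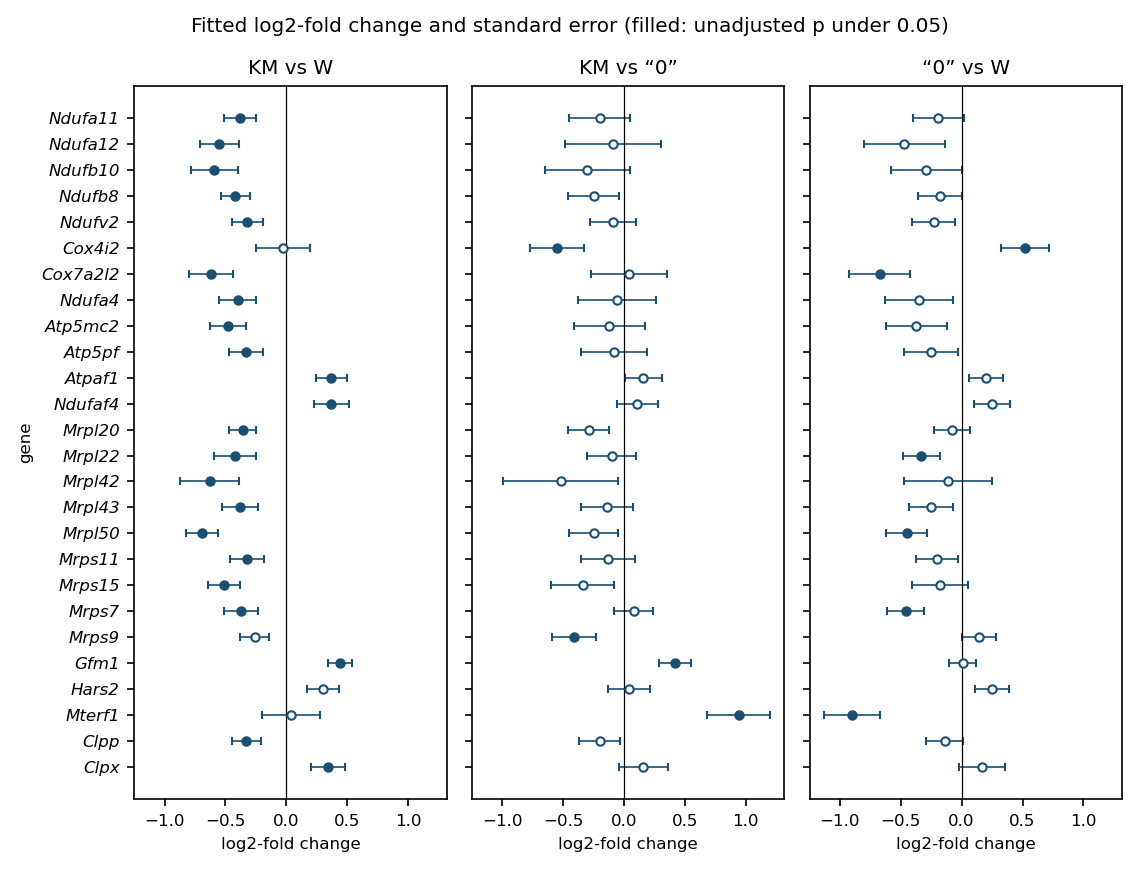
Fitted log2-fold change of each of the 26 genes for the 3 pairs of strains (one panel each), with bars of 1 standard error and filled points for an unadjusted p under 0.05 (QLF test). Points are filled for 22 genes where KM is compared with W rats and for 4 where it is compared with “0” rats. Most genes were chosen from the list of the former pair, so the gap between these numbers follows from the choice and does not compare the strains. Between “0” and W rats, a pair without a list, 6 points are filled. The bars of most subunits are longer in the comparisons with “0” rats, from which most of these genes were not chosen.

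Fewer of the 26 genes were called in the comparisons with “0” rats than in KM vs W, from whose list most of them were chosen. In KM vs “0” 4 of the 26 genes were called (3.65% of all genes), 2 lower (Cox4i2 and Mrps9) and 2 higher (Gfm1 and Mterf1). These are the 4 genes listed for it, and 3 genes did not overlap (4.55% of all genes). None of the 22 genes listed for KM vs W alone was called in KM vs “0”, and their median log2-fold change was −0.11. Over all 26 genes the median in KM vs “0” was −0.11 as well, but its sign turned without “0” 3 (0.02) and with a covariate (0.06 with the share of the 10 genes with most counts, 0.04 with the share of reads outside genes), and it was −0.28 without “0” 4. In “0” vs W 6 of the 26 genes were called (6.69% of all genes), 5 lower (Mterf1, Cox7a2l2, Mrps7, Mrpl50 and Mrpl22) and 1 higher (Cox4i2). In this comparison 4 did not overlap (4.33% of all genes). Of the 22 genes 4 were called, all lower, with a median of −0.21, against −0.01 for all genes. Over all 26 genes the median in “0” vs W was −0.19, with −0.41 without “0” 3 and −0.04 without “0” 4. These comparisons share rats with KM vs W, and the adjusted p (edgeR) ranged from 0.987 to 0.995 in KM vs “0” and from 0.318 to 0.998 in “0” vs W. A p above the threshold does not show that the strains had equal levels.

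Single rats differed widely within the “0” strain. Relative to the mean of the W rats, the median log2 level of the 19 genes of subunits was −0.41, −0.28 and −0.60 in KM 1 to KM 3. In “0” 1 to “0” 4 it was −0.21, −0.32, 0.22 and −0.74, and in W rats it was −0.11 to 0.08. The “0” rats thus held both the highest and the lowest rat of the study. For all genes the same median was −0.03 to −0.01 in every rat. The median of the 7 genes of factors was 0.22, 0.30 and 0.48 in the KM rats and −0.02 to 0.10 in the “0” rats.

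**Figure D3:**
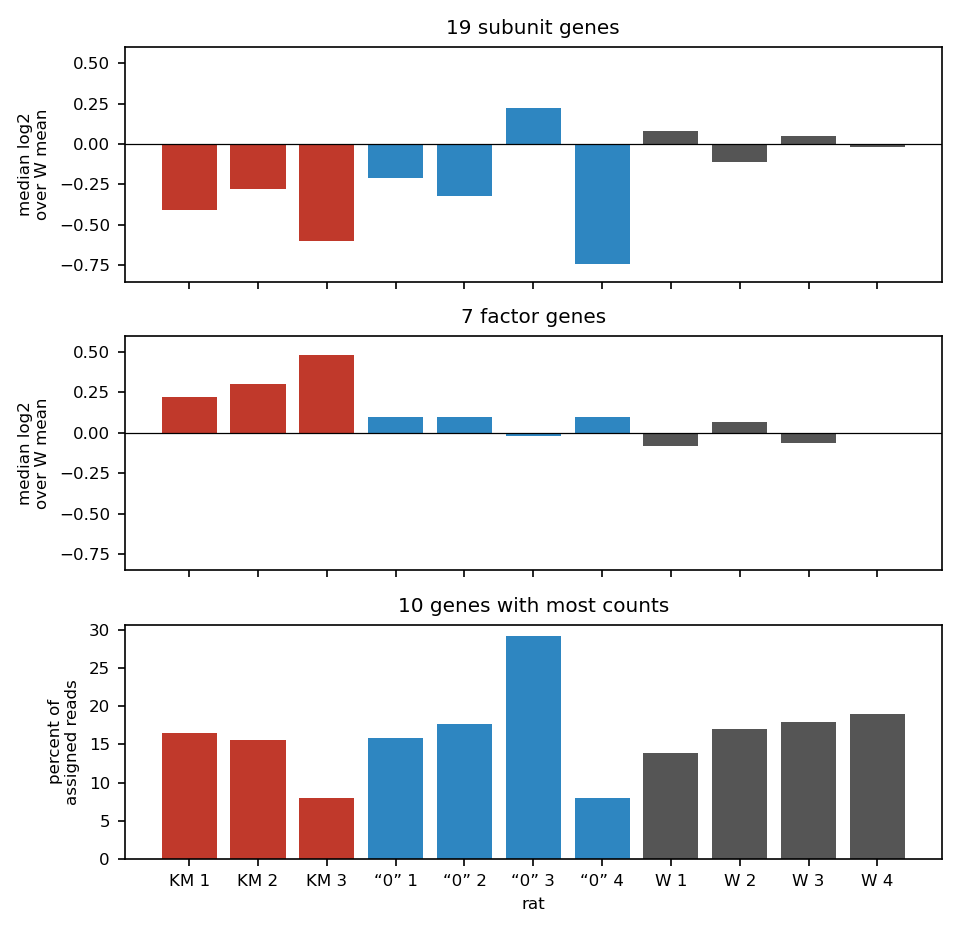
Median log2 level over the mean of the W rats for the 19 genes of subunits and the 7 genes of factors in each rat, above the percent of assigned reads on the 10 genes with most counts in that rat. “0” 3, with 29.21% of its reads on 10 genes, has the highest bar for subunits, and “0” 4 and KM 3, with 7.952% and 7.944%, have the lowest.

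“0” 3 was the highest and “0” 4 the lowest of the “0” rats in 14 of the 19 genes of subunits (73.7%), and in 8.73% of 13651 genes of the whole set. Over the subunits, the level in “0” 3 was 0.895 to 4.87 times that in “0” 4, with a median of 1.84. Over the factors the ratio was 0.555 to 1.5, with a median of 1.02, and the median over all genes was 0.988. KM 3 was the lowest KM rat in 13 of the 19 genes (68.4%; 36.5% of all genes), and the highest in none. Among the factors, KM 3 was the highest KM rat in 5 of 7, and it was so in 39.7% of all genes. The rats in which the subunits were lowest, “0” 4 and KM 3, were those with the smallest share of reads on the 10 genes with most counts, and the rat in which they were highest had the largest share. In alternatives chosen after seeing the data, with this share as a covariate, 12 genes were called in KM vs W (11 lower, 1 higher; median log2-fold change −0.32) and 10 in “0” vs W (9 lower, 1 higher; median −0.28). With the 17 genes that were among the 10 with most counts in any rat taken out of the library sizes, 22 were called in KM vs W (18 lower, 4 higher; median −0.37).

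The 26 genes spread more among “0” rats than among the others. Most were chosen from the list of KM vs W, where a low p favours little spread within KM and within W rats. The smaller spread in KM and W rats thus follows at least in part from the choice. The median standard deviation of log2 levels was 0.34 among “0” rats, 0.20 among KM rats and 0.13 among W rats, against 0.30, 0.24 and 0.23 for all genes, and it was larger among “0” than among W rats in 23 of 26 genes (88.5%; 65.5% of all genes). Without “0” 3, 13 of the 26 genes were called in “0” vs W, 12 of them lower, while without W 1 there were 2, and without both “0” 3 and “0” 4 there were 5.

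Fixed lists of other symbols matched 8 further nuclear genes for mitochondrial proteins among the genes the study named, and Esrra, a regulator of such genes. They do not cover every such gene that the study named, and Acsm5 and Ucp3 are among those left out. Most of these 9 genes had higher fitted levels in KM than in W rats. In KM vs W 7 of the 9 were called (10.9% of all genes), 6 higher and 1 lower, again in genes chosen for differing. Their median log2-fold change was 0.32, against 0.01 for all genes. Polg2, the accessory subunit of the mitochondrial DNA polymerase, was at 3.78, 4.34 and 5.26 CPM in KM rats and at 2.31, 2.61, 2.41 and 1.60 CPM in W rats (0.99 ± 0.25, SE). Spg7, a subunit of a protease of the inner membrane, had a log2-fold change of 0.32 ± 0.10 (SE) in KM vs W and was the 1 gene of the 9 called in “0” vs W (0.24 ± 0.10, SE; adjusted p = 0.715, edgeR). Cox15, which makes the heme A of complex IV, and Sucla2, a subunit of succinyl-CoA synthetase in the citric acid cycle, were higher in KM vs W by 0.57 ± 0.19 and 0.32 ± 0.12 (SE) on the log2 scale. Uqcc2, an assembly factor of complex III, was the 1 gene called lower (−0.42 ± 0.15, SE). In KM vs “0” Esrra, a nuclear receptor that activates many genes of oxidative phosphorylation, was the 1 gene called among the 9 (0.32 ± 0.13, SE; adjusted p = 0.987, edgeR), with 82.4 to 85.8 CPM in KM, 60.7 to 78.1 CPM in “0” and 58.2 to 82.0 CPM in W rats.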

How the data were processed

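The members and the gene lists were chosen with earlier results of these data known. As stated in the methods of the study and the submitters' processing notes, the authors trimmed 75-bp single-end reads of directional polyA libraries with Trimmomatic, mapped them to Rnor_6.0 with STAR and counted them per gene with HTSeq. The names of the unassigned classes in the files are those of featureCounts, so the counter is uncertain. Whether strand was used in counting is not given in the sources used here. The deposited files hold these counts, whole reads per gene without normalization, 1 file per rat. Reads outside genes (16.47 to 22.68% of assigned plus unassigned reads) and on several genes were left out of library sizes and tests.

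Strains were taken from the sample titles. Each pair of strains was fitted on its own, without covariates, with the quasi-likelihood F-test of edgeR 4.0.16 (R 4.3.3), TMM factors and genes with a mean of at least 1 CPM. Alternatives used DESeq2 1.42.0. The fit was tested on simulated data. Counts of replicate rats differed by far more than sampling noise (chi-square per degree of freedom 18.6 to 211), so no library was counted as a repeat. Replicate numbers did not pair the rats and were not used as a block. Symbols were taken from the names the study lists. All members were named, and of the other genes up to 4 in each direction with the smallest p per comparison among those called. The floor of 3 counts covers counting error only. Each replicate is a rat, so p-values measure the spread between rats.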

Additional observations from a re-analysis of the deposited data

Results flagged for a closer look

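Within the strains of 4 rats, 52 groups of levels (26 genes in the “0” and W rats) were searched for a rat far from the others, and 3 were found, where chance gives about 1 in 20. Ndufa4 was at 59.6 CPM in “0” 4, and the nearest “0” rat was at 150 CPM. Atpaf1 was at 62.2 CPM in “0” 2, and the nearest was at 50.7 CPM. Clpx was at 26.7 CPM in W 2, and the nearest W rat was at 20.8 CPM.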

How the results depend on the processing

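No direction of a member called in a comparison was reversed by any alternative. Members called in KM vs W fell from 22 to 11 in 1 fit of all 11 rats, to 11 with the replicate number as a block and to 12 with the share of the 10 genes with most counts as a covariate, while their median log2-fold change was −0.37, −0.39 and −0.32, against −0.37. When 1 rat was left out they ranged from 10 to 20, with 13 without KM 1, 12 without KM 3, 10 without W 1 and 13 without W 3. Of the 26 members, 9 were called in KM vs W without any 1 rat (Ndufa12, Ndufb10, Ndufb8, Cox7a2l2, Atp5mc2, Mrpl20, Mrpl50, Mrps15 and Gfm1). In KM vs “0”, 4 became 2 with the block, 1 without the 3 libraries that stand apart, and 2 to 4 without 1 rat (2 without KM 1, KM 3 or “0” 3). In “0” vs W, 6 became 10 with the covariate and 2 to 13 without 1 rat (13 without “0” 3, 2 without W 1).

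With the 9 further genes (Esrra included), 29 of 35 were called in KM vs W. The 1 fit of all rats called 17, the block 14 and the covariate 16, and leaving out 1 rat 14 to 26 (18 without KM 1, 16 without KM 3, 14 without W 1, 18 without W 3). In KM vs “0” 5 became 3 without a filter, with the block and with either covariate (the other being the share of reads outside genes), 1 without the 3 libraries, and 2 to 5 without 1 rat (2 without KM 1, KM 3 or “0” 3). In “0” vs W 7 became 11 with the covariate and 2 to 14 without 1 rat (14 without “0” 3, 2 without W 1, 4 without W 2 or W 3). The cause was not tested. No member passed adjustment under any alternative in any comparison, except Gfm1 and Mrpl50 in KM vs W with the DESeq2 Wald test (2 members). Same-numbered rats correlated at −0.579 to 0.513 in 10 pairs, 4 of them over 0.1, so numbers gave no pairing. The covariates, the library sizes without the 17 genes and the fit without 3 libraries were chosen after seeing the data. Mitochondrially encoded genes could not be named, so library sizes were computed without hemoglobin genes and, as an added alternative, without the 17 genes with most counts. These library sizes, DESeq2, its size factors, the newer quasi-likelihood method and other filters left the members called within 1.5 times of the main number.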
